A study of Mus musculus with 9 samples.

Results

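The 6 mature miRNAs described here are mmu-miR-140-3p, mmu-miR-140-5p, mmu-miR-674-3p, mmu-miR-674-5p, mmu-miR-22-3p and mmu-miR-365-3p, out of 1101 mature mouse miRNAs listed in at least 1 of 9 small RNA libraries. They were chosen by their levels in these same libraries, which were low after 24 h of silica, and both arms of miR-140 and of miR-674 were taken. The prefix mmu, for mouse, is left out below. All 6 were listed in all 9 libraries, and all 6 passed the filter on low counts. The libraries were made from exosomes, the small vesicles that cells shed, which were collected by ultracentrifugation from the medium of RAW264.7 cells, a mouse macrophage line, grown with 10% fetal bovine serum. The untreated group, the group with silica for 24 h and the group with silica for 48 h hold 3 libraries each, which the series calls independent repetitions. All come from the same line without a change of genotype, and neither the silica dose nor the culture time of the untreated cells is given in the sources used here. Silica is the mineral dust behind silicosis, which begins when lung macrophages take up the particles.

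A miRNA hairpin is cut into a 5p and a 3p strand, and the strand that is loaded into an Argonaute protein guides it to messenger RNAs that pair with its seed, here bases 2 to 8. The other strand is usually lost, so the ratio of the strands is a property of a hairpin apart from how much of it is made. The hairpin of miR-140 sits in Wwp2, a ubiquitin ligase gene, and is best known for its role in cartilage. The miRNA miR-22 comes from an exon of a noncoding host transcript and is made in many tissues, while the hairpins of miR-365 lie beside those of the miR-193 family. The hairpin of miR-674 is described mainly from rodents.

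The strands carry different seeds, and the sequences show what each could pair with. RefSeq (GRCm38.p6) gave a mature sequence for 5 of the 6, each 21 to 22 bases long, with 5 different seeds. The seed is in capitals, from 5′ to 3′.

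miR-140-3p: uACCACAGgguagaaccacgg

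miR-674-3p: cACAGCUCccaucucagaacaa

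miR-674-5p: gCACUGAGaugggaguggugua

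miR-22-3p: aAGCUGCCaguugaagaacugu

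miR-365-3p: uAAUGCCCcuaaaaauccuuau

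No seed was shared among these 5 members, and the strands of miR-674 are the paired arms of 1 hairpin. The hairpins are shown because several results turn on the balance of the arms, with the mature strands that the table holds in capitals.

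Mir140: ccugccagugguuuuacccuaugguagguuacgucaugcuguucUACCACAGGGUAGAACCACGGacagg

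Mir674: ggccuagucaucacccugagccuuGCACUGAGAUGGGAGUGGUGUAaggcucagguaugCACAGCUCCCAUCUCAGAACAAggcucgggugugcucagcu

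Mir22: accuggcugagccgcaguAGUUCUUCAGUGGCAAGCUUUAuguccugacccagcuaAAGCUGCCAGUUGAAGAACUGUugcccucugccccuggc

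Mir365-1: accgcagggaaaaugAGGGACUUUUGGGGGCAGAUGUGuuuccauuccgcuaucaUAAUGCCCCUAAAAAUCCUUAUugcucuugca

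Mir365-2: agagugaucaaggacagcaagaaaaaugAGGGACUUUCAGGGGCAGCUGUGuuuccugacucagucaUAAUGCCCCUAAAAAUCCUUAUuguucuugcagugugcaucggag

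In GRCm38, the assembly that mm10 denotes, Mir140 lies at chr8:107551244-107551313 on the plus strand. It overlaps an annotated exon of Wwp2, but no Wwp2 sequence marked there as coding or as untranslated region. Mir22 lies at chr11:75463716-75463810 in an exon of Mir22hg that an exon of Tlcd2 also covers. Mir674, at chr2:117185127-117185226, and Mir365-2, at chr11:79726400-79726511, lie between annotated genes, and Mir365-1, at chr16:13453840-13453926, lies in an intron of Gm15738, which runs on the other strand. The 3p strands of the 2 miR-365 hairpins are identical, so a read of miR-365-3p cannot be given to one of them.

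Mature miRNAs took 28.0% to 44.7% of the counted reads, which came to 2158418 to 8331451 counts in a library. Levels are given as CPM, counts per 1000000 mature miRNA counts with TMM scaling. The 24 h library 3 was the shallowest, where 3 counts correspond to 1.39 CPM before scaling, against 0.360 in the deepest. The untreated library 2 and the 48 h library 2 stood apart and were the most alike of all pairs (r = 0.968, taken across miRNAs and not across replicates). Results of the members that rest on either library are also given without it. Values of the partner strands, of the markers and of the profile distances are given with all libraries only. In exosome RNA, fewer vesicles with a miRNA and fewer copies in each vesicle cannot be told apart.

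The 3p strand of miR-140 had the cleanest low point at 24 h. It stood at 349.7, 866 and 654 CPM in the untreated libraries 1, 2 and 3. At 24 h it stood at 176, 162 and 145 CPM. At 48 h it stood at 314, 505 and 316 CPM. Every 24 h library thus lay below every other library, with the 24 h group the tightest (161 ± 15.7 CPM, SD, n = 3). The untreated group had 623 ± 259 CPM and the 48 h group 378 ± 109. The 48 h libraries overlapped the untreated ones. Fitted in edgeR, the log2 fold change was -1.95 ± 0.54 (SE) for 24 h against untreated and 1.24 ± 0.53 for 48 h against 24 h. Since the miRNA was chosen for this low point, these values describe it and were not tested.

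The 5p strand of the same hairpin, which in mouse cartilage represses the matrix-cutting protease Adamts5, moved less. It stood at 349, 1078 and 605 CPM in untreated, at 322, 499 and 267 CPM at 24 h and at 537, 1407 and 484 CPM at 48 h. The 24 h group was lowest on average, but its library 2 lay above the untreated library 1 and the 48 h library 3, so the groups overlapped. Library 2 was the highest of its group at all 3 conditions. Its log2 fold change was -0.90 ± 0.62 (SE) for 24 h against untreated and 1.16 ± 0.62 for 48 h against 24 h. The former was -0.36 without the untreated library 2, and the latter was 0.47 without the 48 h library 2.

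The 3p strand of miR-674 was scarcer and dropped further. It stood at 36.9, 79.9 and 97.2 CPM in untreated and at 10.1, 24.0 and 4.15 CPM at 24 h. At 48 h it stood at 76.0, 138 and 49.99 CPM. All 24 h libraries lay below all others, and the 48 h range overlapped the untreated one. The lowest value rests on 8 counts in the 24 h library 3, which is 3.71 CPM before TMM scaling with a 95% exact Poisson interval of 1.60 to 7.30 (counting error only). For 24 h against untreated its log2 fold change was -2.46 ± 0.74 (SE), and for 48 h against 24 h it was 2.77 ± 0.75. Without the 24 h library 2 these were -3.32 and 3.60.

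The 5p strand of miR-674 did not bear out the label of a low point at 24 h. It stood at 34.4, 314 and 86.3 CPM in untreated, at 68.2, 79.0 and 89.1 CPM at 24 h and at 75.7, 302 and 69.6 CPM at 48 h. The 24 h libraries were close together and near the untreated library 3 and the 48 h libraries 1 and 3. The untreated library 1 lay below them all, while library 2 of untreated and of 48 h stood far above all. The group means of 145, 78.8 and 149 CPM differ mainly through those 2 libraries. For 24 h against untreated the log2 fold change was -0.88 ± 0.83 (SE). It was -0.25 with the replicate number as a block and 0.41, of the other sign, without the untreated library 2. For 48 h against 24 h it was 0.92 ± 0.83, and -0.13 without the 48 h library 2.

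The most abundant of the 6 was miR-22-3p, which ranked between place 8 and place 20 among the mature miRNAs of a library and took up to 4.64% of their counts. It stood at 17718, 27457 and 33757 CPM in untreated, at 18117, 13242 and 16853 CPM at 24 h and at 26499, 34089 and 46868 CPM at 48 h. Every 48 h library lay above every 24 h library, and the untreated library 1 lay within the 24 h range. Its log2 fold change was -0.71 ± 0.37 (SE) for 24 h against untreated and 1.16 ± 0.37 for 48 h against 24 h, with the smallest errors of the 6 in both.

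The strand miR-365-3p varied widely between libraries of a group. It stood at 9.31, 54.97 and 126 CPM in untreated and at 8.78, 40.3 and 4.66 CPM at 24 h. At 48 h it stood at 189, 203 and 57.8 CPM. Every 48 h library lay above every 24 h library, but the untreated library 1 was as low as the 24 h library 1, so untreated and 24 h overlapped. Counts were few in the low libraries: 50 in the untreated library 1, and 34 and 9 in the 24 h libraries 1 and 3. Its log2 fold change was -1.81 ± 0.99 (SE) for 24 h against untreated and 3.05 ± 1.04 for 48 h against 24 h. The former was -0.90 without the untreated library 3 and -3.23 without the 24 h library 2, and the latter was 4.45 without the 24 h library 2.

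**Figure D1:**
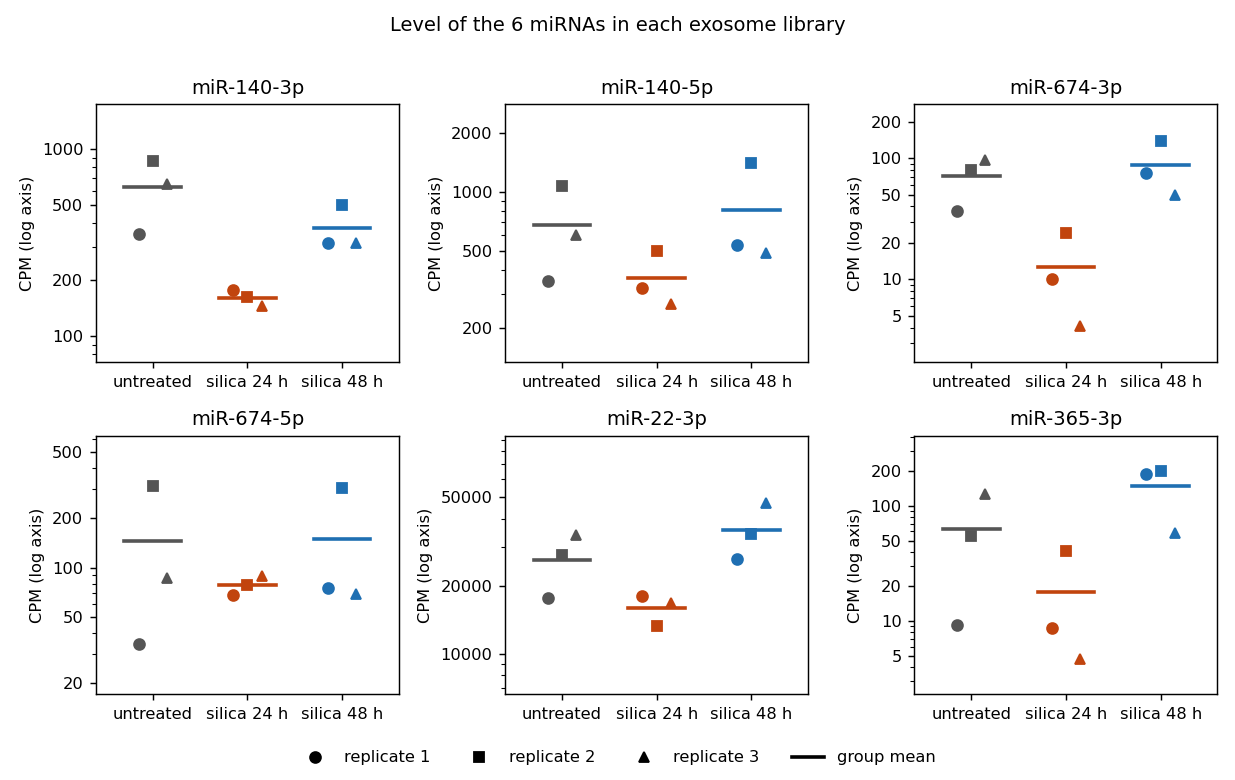
Level of each of the 6 miRNAs (CPM, logarithmic axis, own scale per panel) in the 9 libraries, by group, with the replicate number as the symbol and the group mean as a line. For miR-140-3p and miR-674-3p every 24 h point lies below every other point. The 24 h points of miR-674-5p, at 68.2 to 89.1 CPM, lie above the lowest untreated point and near the lower 48 h points.

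Over the 6, the mean was lowest at 24 h in 6, where the share among the 453 tested miRNAs was 45.9%. Complete separation was rarer: in 2 of the 6, miR-140-3p and miR-674-3p, every 24 h library lay below every untreated and every 48 h library, against 3.97% of those tested. Taken alone, separation of 24 h below untreated held in the same 2 (6.18% of those tested), and separation of 48 h above 24 h in 4, the previous ones with miR-22-3p and miR-365-3p (10.4% of those tested). The choice of members used these contrasts, so nothing is read from the shares. The median log2 fold change of the 6 was -1.35 for 24 h against untreated and 1.20 for 48 h against 24 h, beside -0.07 and 0.14 over all 453. Of all 453 miRNAs 0 (0.0%) passed an adjusted p of 0.05 in either comparison (edgeR quasi-likelihood, Benjamini-Hochberg), with 46 and 44 at an unadjusted p under 0.05. DESeq2 called 4 and 6. With the replicate number as a block, edgeR called 3 miRNAs for 24 h against untreated, none of them among the 6.

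The choice of members used the levels of the 48 h and untreated groups against 24 h, but not the difference between these groups. There the test was run. None of the 6 passed (edgeR quasi-likelihood, adjusted p = 0.997 for each, Benjamini-Hochberg over 453), and the groups overlapped in all 6. Over all miRNAs 0 of 453 passed (0.0%), with 4 at an unadjusted p under 0.05 and 1 called by DESeq2. The groups did not overlap for 3.75% of those tested.

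At 48 h miR-140-3p had a log2 fold change of -0.72 against untreated (95% interval -1.86 to 0.43). The abundant miR-22-3p had 0.45, with the narrowest interval of the 6, -0.37 to 1.26. The widest belonged to miR-365-3p, at 1.24 (-0.90 to 3.37), which ran from 0.69 without the untreated library 1 to 2.13 without the untreated library 3. These intervals leave room for changes of more than 2-fold in at least 1 direction, so similar levels at 48 h and in untreated were not shown. The other 3 were miR-140-5p at 0.26 (-1.09 to 1.61), miR-674-3p at 0.31 (-1.23 to 1.84) and miR-674-5p at 0.04 (-1.76 to 1.84), and each of these took the other sign when some single library was left out. Of the 6, 5 lay above 0, with a median of 0.28, beside 0.03 over all 453.

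**Figure D2:**
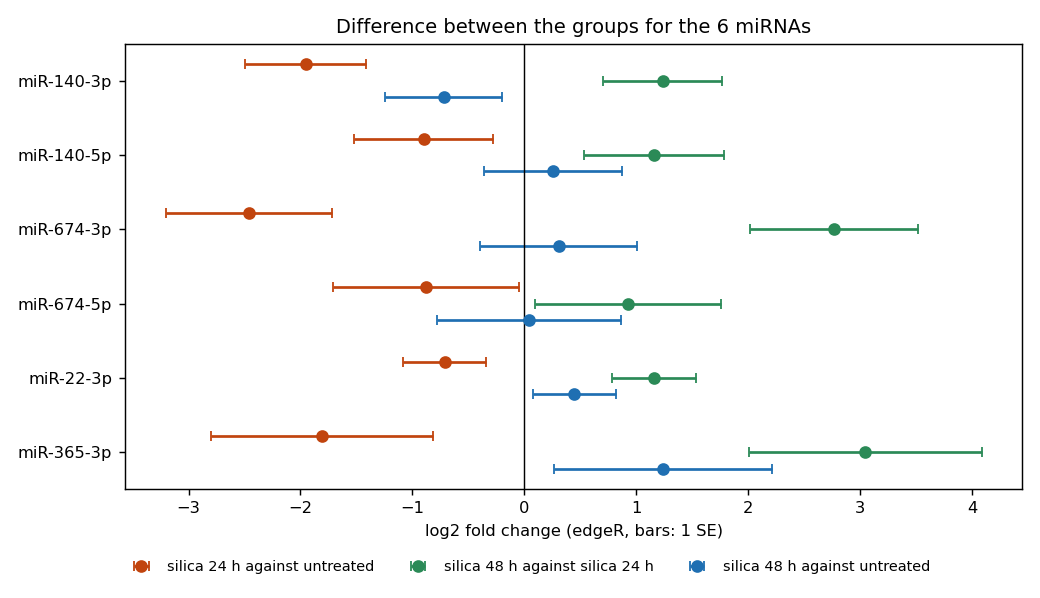
Log2 fold change of each of the 6 miRNAs in the 3 comparisons (points, edgeR), with bars of 1 SE. The comparisons share groups, and the first pair was used to choose the miRNAs. For 48 h against untreated the points run from -0.72 (miR-140-3p) to 1.24 (miR-365-3p), and the bars of miR-140-5p and of both miR-674 strands cross 0.

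The balance of the miR-140 strands was compared within each library. The ratio of 3p to 5p counts was 1.003, 0.803 and 1.08 in the untreated libraries, near 1 in each. It was 0.546, 0.324 and 0.542 at 24 h. It was 0.585, 0.359 and 0.654 at 48 h. Every silica library of either time thus lay below every untreated one, and library 2 was the lowest of its group in all 3. A ratio within a library does not depend on scaling.

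On the log2 scale the mean ratio was -0.07 ± 0.22 (SD, n = 3) in untreated, -1.13 ± 0.43 at 24 h and -0.96 ± 0.46 at 48 h. The difference of 48 h from untreated was -0.89. Its exact permutation p, two-sided, was 0.1, the smallest that 3 against 3 allows, and 0.2 when adjusted over the 2 hairpins tested (Benjamini-Hochberg). It did not pass. Between libraries of the same number the differences were -0.78, -1.16 and -0.73, and without any single library the difference ran from -1.06 to -0.63. Among 53 hairpins with at least 10 counts of each strand in every library, 2 (3.77%) had every 48 h library below every untreated one, miR-140 and, by -0.32, miR-151, and 7.55% had groups that did not overlap in either direction. The median difference over the 53 was 0.07. The shift at 24 h, -1.06, belongs to a contrast used in choosing the strands and was not tested. At that time 9.43% of the 53 had every silica library below every untreated one.

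The balance of the miR-674 strands followed another course. The ratio of 3p to 5p counts was 1.07, 0.254 and 1.13 in untreated, 0.148, 0.304 and 0.0465 at 24 h and 1.004, 0.457 and 0.719 at 48 h. Every 48 h library lay above every 24 h library, and the untreated library 2 lay within the 24 h range. Among the 53 hairpins above, which leave out miR-674 for its low counts, 9.43% had every 48 h ratio above every 24 h ratio. The 48 h and untreated groups overlapped (difference of 0.04 on the log2 scale, two-sided exact permutation p = 1.0 and 1.0 adjusted, where 0.1 is the smallest possible). Without the untreated library 2 the difference was -0.67, and without the 48 h library 1 it was -0.23.

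**Figure D3:**
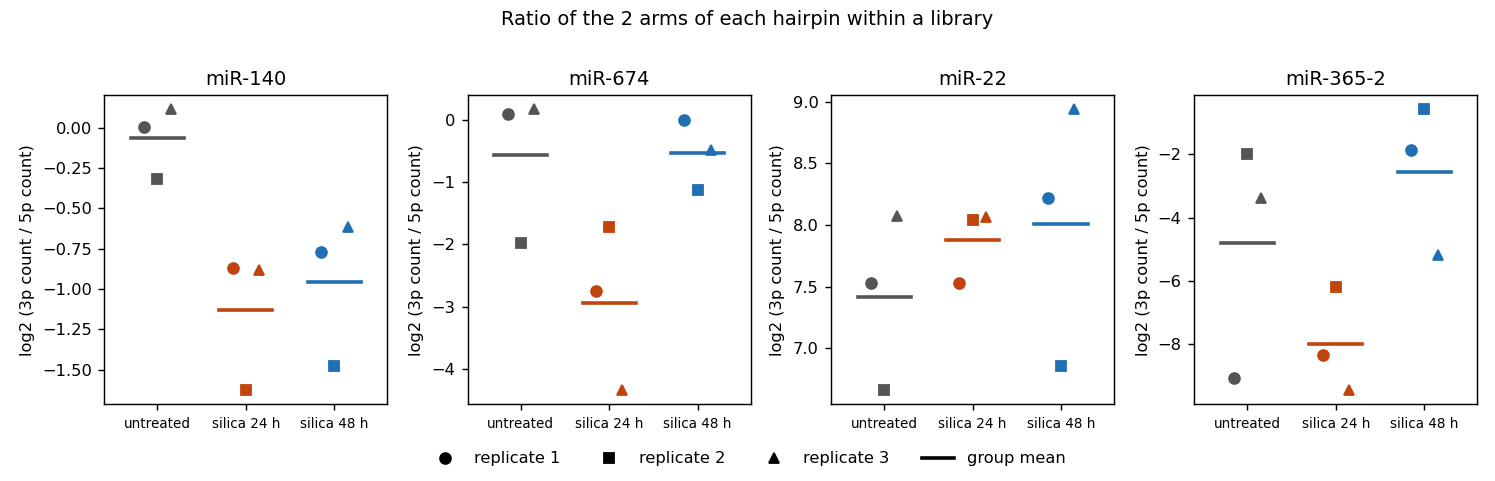
Log2 ratio of the 3p to the 5p count within each library for 4 hairpins, by group, with the replicate number as the symbol and the group mean as a line; scales differ between panels. For miR-140 all 6 silica points lie below all 3 untreated points, and for miR-674 the untreated library 2, at -1.97, lies among the 24 h points.

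The other strand of the miR-22 hairpin was far scarcer. It was taken as the partner of a chosen strand, with earlier results of these data known, so its values at 24 h are not free of that choice. Its sequence, printed for comparison with the loaded strand, has a seed of its own.

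miR-22-5p: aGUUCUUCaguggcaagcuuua

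It stood at 96.1, 271 and 126 CPM in untreated, at 97.9, 50.2 and 62.7 CPM at 24 h and at 88.99, 293 and 95.6 CPM at 48 h. The 24 h libraries 2 and 3 were the lowest of all, and the 24 h library 1 lay among the untreated and 48 h ones. Against untreated, the log2 fold change at 24 h was -1.23 ± 0.67 (SE), and it did not pass (edgeR adjusted p = 0.543, Benjamini-Hochberg). The 3p count was 101 to 490.2 times the 5p count over the 9 libraries, and the groups overlapped in this ratio.

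The other strand of miR-365 ran against the member. Of the 2 hairpins, only the strand of Mir365-2 was found in number: miR-365-2-5p had 84027 counts over the 9 libraries, and miR-365-1-5p had 2, both in the untreated library 3. These 5p strands have the same seed and differ at 3 of 23 bases, which is what lets the counts tell them apart.

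miR-365-1-5p: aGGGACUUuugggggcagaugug

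miR-365-2-5p: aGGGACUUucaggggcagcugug

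The strand miR-365-2-5p stood at 4988, 221 and 1310.0 CPM in untreated, at 2919, 2941 and 3441 CPM at 24 h and at 688, 305 and 2120 CPM at 48 h. Every 48 h library lay below every 24 h library, the reverse of miR-365-3p, as held for 10.4% of the 453 miRNAs tested, and the untreated libraries spanned the whole range. Within untreated, library 1 had the highest 5p level and the lowest 3p level, and the 3p to 5p ratio ran from 0.00187 there to 0.249 in library 2. The 3p counts in this ratio may include reads from Mir365-1. At 24 h the ratio was 0.00301, 0.0137 and 0.00136, and at 48 h it was 0.274, 0.665 and 0.0273. No miR-365-2-5p difference passed edgeR's test (log2 fold change 0.51 ± 0.92, SE, with adjusted p = 0.881 for 24 h against untreated, -1.07 ± 0.93 with 0.997 for 48 h against untreated, and -1.58 ± 0.94 with 0.511 between the times, Benjamini-Hochberg).

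The neighbouring miR-193 hairpins were followed as a list of cluster partners. Mir193a lies 14365 bases from Mir365-2 on chromosome 11, and Mir193b lies 4238 bases from Mir365-1 on chromosome 16. The 3p strand of miR-193a stood at 26.3, 226 and 64.5 CPM in untreated, at 21.4, 45.9 and 31.6 CPM at 24 h and at 86.97, 203 and 31.1 CPM at 48 h. Its 5p strand stood at 510.3, 76.7 and 260.4 CPM, at 465, 275 and 434 CPM, and at 167, 39.6 and 204 CPM in the same order. The untreated library 2 and the 48 h library 2 thus held the highest levels of miR-193a-3p and the lowest of both miR-193a-5p and miR-365-2-5p. Every 48 h library lay below every 24 h one for miR-193a-5p, as for 10.4% of those tested.

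Of the 7 partner strands 5 were tested, and 0 passed in any comparison (edgeR, Benjamini-Hochberg, 0.0% of all tested). At 24 h against untreated 3 were higher and 2 lower, with a median log2 fold change of 0.47. At 48 h against untreated 1 was higher and 4 lower, with a median of -0.26, and between the times 2 were higher and 3 lower, with a median of -1.14. The strands of miR-193b were scarce, at 3.91 to 27.98 CPM for miR-193b-3p and at most 3.23 CPM for miR-193b-5p.

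**Figure D4:**
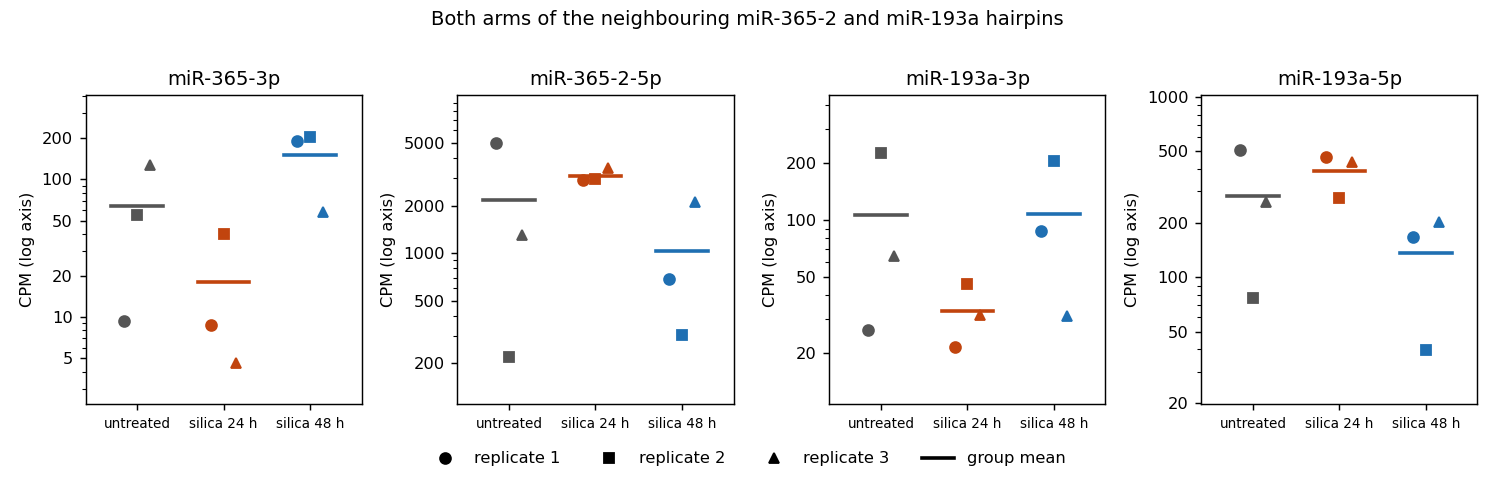
Levels of both strands of miR-365-2 and of its neighbour miR-193a (CPM, logarithmic axis, own scale per panel) in the 9 libraries, by group, with the replicate number as the symbol and the group mean as a line. The 5p strands are low in library 2 of untreated and of 48 h, at 221 and 305 CPM for miR-365-2-5p, where miR-193a-3p is high, at 226 and 203 CPM.

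Few miRNAs share a seed with a member. The seed of miR-140-3p recurs in miR-497b, which had 17 counts in all, and that of miR-674-5p in miR-3473d. The latter had a mean of 27.4 ± 12.3 CPM (SD, n = 3) at 24 h, beside 18.6 ± 12.0 in the untreated group and 17.5 ± 5.59 at 48 h. The highest of its 24 h libraries, at 40.9 CPM, exceeded every other library, the groups overlapped, and no comparison passed (edgeR adjusted p = 0.808, 0.997 and 0.702 for 24 h against untreated, 48 h against untreated and 48 h against 24 h, Benjamini-Hochberg). The mean of miR-3473d was thus highest at 24 h, though within overlapping groups. With its few counts, miR-497b had means of 0.17 CPM in untreated, 0 at 24 h and 0.82 at 48 h.

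The members did not all vary alike. Likeness was measured as the mean absolute difference between profiles of log2(CPM + 1) over the 9 libraries, each centred on its own mean, so that 0 would be the same profile. Among the 15 pairs of members the closest were miR-140-5p with miR-674-5p, at 0.45, and miR-140-3p with miR-140-5p, also at 0.45. The farthest was miR-674-5p with miR-365-3p, at 1.37. The strands of miR-674 were farther from each other (1.16) than miR-674-3p was from miR-365-3p (0.63).

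Against 284 other miRNAs of at least 10 CPM, the 2 closest to each member were taken. All profiles share the same libraries, so libraries that stand apart enter each distance. For miR-140-3p they were miR-24-2-5p (0.29) and miR-29a-5p (0.39), the former averaging 77.2 CPM without silica, 27.1 at 24 h and 63.9 at 48 h. For miR-140-5p they were miR-29a-3p (0.20), a strand known for repressing collagen mRNAs, and miR-186-5p (0.22). For miR-674-3p they were miR-29b-3p (0.57) and miR-29a-5p (0.59), whose means were 34.1, 7.25 and 28.9 CPM. The strand miR-29a-5p was thus among the closest to members from 2 hairpins.

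For miR-674-5p the closest were miR-17-3p (0.24) and miR-16-5p (0.26), and for miR-22-3p miR-96-5p (0.27) and miR-201-5p (0.28). For miR-365-3p they were miR-700-5p (0.81) and miR-106b-5p (0.91). Distances are larger for members that vary more: the mean absolute deviation of a member's own profile from its mean was 1.56 for miR-365-3p, 1.22 for miR-674-3p and 0.50 for miR-22-3p.

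Markers of blood cells and of other tissues were read beside the members. All 6 miRNAs of the macrophage and blood cell list were found, at a summed 20976 to 72831 CPM in untreated, 40847 to 52859 at 24 h and 28843 to 67382 at 48 h, and miR-146a-5p made up most of it. At 24 h against untreated 2 of the 6 had a log2 fold change above 0 and 4 below, beside 211 and 242 of all 453. The blood cell miRNA miR-142a-3p averaged 86.9 CPM without silica, 26.1 at 24 h and 109.7 at 48 h, whereas the myeloid miR-223-3p averaged 107, 165 and 105 CPM in that order and miR-342-3p 444, 940.3 and 706. The 6 miRNAs of the serum and red cell list summed to 13893 to 37838, 15010.0 to 19215 and 12432 to 48225 CPM in the same order. The red cell miRNA miR-451a was higher on average at 24 h (444, 1952 and 652 CPM), while miR-16-5p, which makes up most of the sum, had its lowest mean there (17256, 9189 and 19672 CPM). The 48 h mean of miR-16-5p rests largely on a single library with 41872 CPM.

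The mesenchymal, cartilage and endothelial list was read beside miR-140, a cartilage miRNA. Its 6 miRNAs, all listed, summed to 423 to 2224 CPM in untreated, 630.2 to 1593 at 24 h and 531 to 1037 at 48 h, with miR-145a-5p at 0 in all untreated libraries. At 24 h against untreated 4 of the 5 tested had a log2 fold change above 0 and 1 below, beside 211 and 242 of all 453. The more abundant miR-199a-3p averaged 521 CPM without silica, 243 at 24 h and 238 at 48 h. The mean sum of the list was 1080, 958 and 748 CPM in that order. Both untreated means rest largely on a single untreated library, which had 1526 CPM of miR-199a-3p. The 6 epithelial miRNAs summed to 101 to 173, 61.2 to 119 and 126 to 185 CPM. Of the 5 tested, 5 lay below 0 at 24 h against untreated and 5 above 0 at 48 h against 24 h. Over all 453 tested miRNAs, 242 and 245 did so. The untested miR-205-5p went the other way, with means of 0.59 CPM in untreated, 2.62 at 24 h and 0.035 at 48 h. The 3 muscle miRNAs stayed at a sum of at most 4.66 CPM. The part of other cells, of serum RNA and of the RNA yield in the members' levels was not tested.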

How the data were processed

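Per the labels, RAW264.7 exosome RNA was taken with Trizol and sequenced by the BGISEQ-500 small RNA protocol, with 3 libraries in each of 3 groups. Trim Galore, Bowtie, HTSeq and the build mm10 are named in the submitters' processing notes, without versions. The sources used here do not state how multiply matching reads were counted. The deposited tables hold read counts per small RNA, and these sum to the total in the header in all 9. The deposited column headed TPM is the count in RPM of that total (matched within 0.005) and was not used.

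Mature miRNAs not listed in a table were taken as 0. The 453 of 1101 that passed filterByExpr (minimum count 10) received TMM factors of 0.829 to 1.16 and entered edgeR 4.0.16 (quasi-likelihood, all 9 libraries in 1 fit, 6 residual degrees of freedom, no block) in R 4.3.3, with Benjamini-Hochberg adjustment over the 453 and a threshold of 0.05. DESeq2 1.42.0 was an alternative. Strand ratios used a pseudocount of 0.5 and two-sided exact permutation tests (scipy 1.17.1). The edgeR steps were checked on simulated counts, where recovery of the set changes was required only at a smaller spread than here. The common coefficient of variation between libraries here was 0.7565. The check therefore does not show how much the test could find in these data. P-values measure only the spread between these libraries, whose origin in separate cultures is not described further.

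The members and lists were chosen with earlier results of these data known. Named were the 6 members, their partner strands and the neighbouring miR-193 strands, miRNAs with a member's seed, the 2 miRNAs of closest profile per member and the marker lists, and miR-151, which was named after its values were seen. No pair of libraries within a group was a duplicate, since chi-square over degrees of freedom was 304.7 or more. Deviations of same-numbered libraries from their group means had r from 0.13 to 0.420 over the 3 numbers for untreated with 24 h. For untreated with 48 h they had r from 0.135 to 0.625. Libraries of different number reached 0.151 and 0.332, and only number 2 exceeded these. The labels state no pairing. A replicate block is 1 of the alternatives, which also covered other scalings, filters, groups alone in the fit and each library left out.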

Additional observations from a re-analysis of the deposited data

How the results depend on the processing

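For 24 h against untreated the count of 0 calls became 7 without a filter on low counts, 4 in DESeq2 (miR-140-3p among them), 3 with the replicate block, and 1 with upper-quartile factors or with the 2 groups alone; leaving out 1 library gave 0 to 1. For 48 h against 24 h it became 16 without a filter (miR-674-3p and miR-365-3p among them), 6 in DESeq2 (miR-674-3p among them) and 3 with the replicate block, and 0 to 1 with a library left out. Same-numbered libraries did not all deviate together there (r from -0.072 to 0.28). The members were chosen for their values in these contrasts of 24 h with untreated and of 48 h with 24 h. Calls that name a member there are therefore not tests of it. For 48 h against untreated the count of 0 became 1 without a filter and 1 in DESeq2, and leaving out a library gave 0. The replicate block changed the call of no member in the tested comparison. There 103 of 114 alternative values of the members had the sign of the reported one and none passed 0.05. The 11 others were miR-674-5p without scaling factors (-0.015) and with the 2 groups alone (-0.033), miR-674-3p without both libraries 2 (-0.09), and, with 1 library left out, miR-674-5p (-1.06 to 1.32), miR-674-3p (-0.21 to 0.58) and miR-140-5p (-0.45 to 0.78). The strand ratio of miR-140 kept its sign in all 8 alternatives, and that of miR-674 ran from -0.67 to 0.41 with 1 library left out. In the other comparisons 112 and 110 of 114 values moved by less than 1 SD of log2(CPM + 1) between libraries (pooled over the groups compared), and the sign changed only for miR-674-5p, 2 times in each, when a library 2 was left out. Using all counted reads as library size moved the median of all miRNAs for 48 h against 24 h from 0.14 to 0.36, for 24 h against untreated from -0.07 to -0.21 and for 48 h against untreated from 0.03 to 0.14. The cause of these changes was not tested. Depth limits miR-674-3p and miR-365-3p most, with 8 and 9 counts in the 24 h library 3.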

Other observations

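The tables also count reads under Rfam families of miRNA precursors, which enter no comparison here. For mir-365 these reads numbered 497, 0 and 133 in the untreated libraries, 63, 277 and 61 at 24 h and 122, 2 and 296 at 48 h. The lowest of these, 0 and 2, fell in library 2 of untreated and of 48 h, where miR-365-2-5p was also lowest. For mir-22 they numbered 39, 20 and 100 in untreated, 124, 18 and 7 at 24 h and 6, 16 and 87 at 48 h, with no group separate from another. For mir-140 no library had more than 4, and for mir-674 no such reads were listed.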
